A study of Mus musculus with 12 samples.

Results

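Ly6c2-high monocytes of mouse tumours were described across genes, by tumour line and day. The cells were chosen by their raw counts of unique molecular identifiers (UMIs, each standing for 1 captured RNA molecule): at least 2 UMIs of Ly6c2, at least 2 of Lyz2 and at least 1 of Tyrobp, 0 of C1qa, C1qb and C1qc together, at most 1 of Arg1, and 0 of Cd3e and Cd3g together. In all, 1515 cells met this rule, of 50416 tumour cells that passed the cell filters and were assigned to a hashed tumour, and of 80184 barcodes in the series. Of 7227 day 0 cells, for which the hashtag sheet lists no mouse, 0 met the same counts, which allows a share of up to 0.0415%.

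The study followed tumours of 5 lines (SCC31, SCC32, SCC35, SCC37 and SCC40) by droplet-based single-cell RNA sequencing of live sorted cells, with an antibody hashtag for each tumour. In the authors' hashtag sheet the phenotype entry was rejected for 2 lines, SCC40 and SCC31, and non-rejected for the other 3. Tumours were taken on days 6, 10 and 16 in every line and on day 20 in the 3 non-rejected lines. No treatment or gene alteration was named for any group, and strain, age and sex of the mice are unstated in these sources. Each line had a library of its own, and a mix library held tumours number 3 of SCC31, SCC35 and SCC40, so line and library cannot be told apart outside the mix library. The sheet gives each tumour a mouse and a cage number, and within a line no pair of these numbers occurred again, so tumours of a line are listed as separate mice. Some pairs recurred between lines, also on different days, and whether these name the same mouse is not given, so independence between lines is assumed in the tests. The SCC31 tumours of day 16 had 0 assigned cells, so day 10 was the last day used for SCC31.

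Ly6C-high monocytes leave the bone marrow through the chemokine receptor CCR2, circulate in blood and enter inflamed tissue and tumours. There they can act as inflammatory cells that secrete cytokines such as interleukin 1 beta, or mature into macrophages and dendritic-like cells, losing Ly6C and gaining macrophage genes such as the complement C1q genes. Interferons induce guanylate-binding proteins, antigen presentation genes and chemokines such as Cxcl9 in these cells, and C-type lectins, Toll-like receptors and TREM1 carry signals of microbes and damaged cells.

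Depth limited what could be seen in a single cell. A member had a median of 2043 UMIs (quartiles 1415.5 and 3048.5) and of 994 detected genes, against medians of 3499 UMIs in C1q-high macrophages (myeloid cells with at least 3 C1q UMIs) and 2306 in T cells. For gene tests the counts were therefore summed per tumour. Sums were used for the 31 tumours with at least 10 members and held 34720 to 543559 UMIs. Among members, 131 were called as doublets by Scrublet, 45 carried RNA of another cell type, and 129 had a barcode that also occurred in another library. Y-linked genes were lower in tumours labelled SCC31 than in the day 0 cells of that line. SCC31 day 0 cells had 106 CPM (the usual sequencing unit, a gene's summed counts scaled to the same total in every tumour). The non-immune cells of the mix library tumours labelled SCC31 had 1.65 CPM at day 6 and 8.30 CPM at day 10, on 1 and 5 counts. The tumours of the SCC31 library itself had 0 to 31.4 CPM on 0 to 3 counts. Non-immune cells were chosen by low counts of immune genes and may include host cells. Whether the label is right was not tested. In SCC32, tumour 2 of day 20 had 3.05 CPM on 12 counts, while the 7 others had 24.7 to 45.9 CPM; it entered the shares but not the gene tests. Of the 167 members labelled SCC31, 166 came from those mix library tumours, and results without them are given where they matter.

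Values just inside and just outside the thresholds describe how sharp the group is. Of the members, 243 had exactly 2 Ly6c2 UMIs, while 340 cells that met all other conditions had 1 and 610 had 0. A further 218 cells missed the rule through a single C1q UMI, 224 through having 1 Lyz2 UMI, 79 through having no Tyrobp UMI and 15 through having 2 Arg1 UMIs. Since these genes chose the cells, their levels are no finding.

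The given marker genes that the rule did not use fitted the monocyte label. As a description, without a test, the median level over the 31 tumours was 2721 CPM of Plac8 in members and 712 CPM in C1q-high macrophages of the same tumours, and members were higher in 31 of 31. Clec4e, a C-type lectin that recognises mycobacterial glycolipid and dead cells, had medians of 281 and 102 CPM, with members higher in 31. Ly6i, a Ly6-family gene next to Ly6c2, had medians of 446 and 211 CPM, with members higher in 30. For Ccr2 the medians were 332 and 176 CPM, and members were higher in 27. Chil3, a chitinase-like monocyte product, stood at 307 against 34.0 CPM, with members higher in 31. The macrophage gene Ms4a7 showed the reverse, at 25.8 CPM in members and 458 CPM in C1q-high macrophages, and members were higher in 0 tumours. Not every macrophage marker did so, since the day 6 median of Maf was higher in members than in C1q-high macrophages. Over the 18 macrophage markers the summed level had a median of 5660 CPM in members and 9700 CPM in C1q-high macrophages. The 18 monocyte markers summed to a median of 17982 CPM in members, 10336 CPM in C1q-high macrophages and 19129 CPM in non-immune cells, so that sum does not separate members from non-immune cells.

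**Figure D1:**
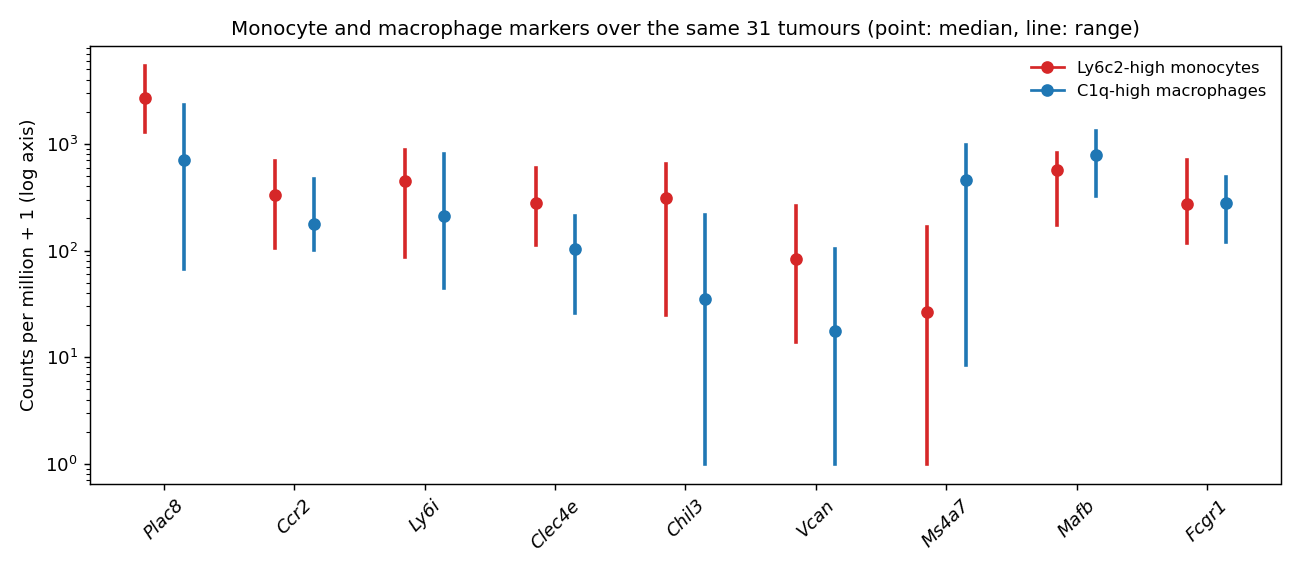
Median (point) and range (line) over the same 31 tumours of monocyte and macrophage marker levels, as CPM plus 1 on a log axis, for members (red) and C1q-high macrophages (blue). Members were higher for Plac8, Clec4e and Chil3 in 31 of 31 tumours, and for Ms4a7 in 0.

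Markers of other cells were present to different extents. Of 14 dendritic cell markers, 7 had enough counts to be tested. In the mix library tumours Mgl2 stood at 0 to 207 CPM, Clec10a at 16.6 to 75.3 CPM and Ccr7 at 0 to 75.3 CPM. Whether this RNA came from dendritic cells was not tested. Of 10 neutrophil markers, Ly6g, Camp and Ngp had no UMI in the members' sums, while 3 others had enough counts to be tested. In the mix library tumours Csf3r stood at 37.4 to 69.0 CPM and S100a8 at 0 to 94.9 CPM, so neutrophil markers were not absent. Of 7 melanocytic genes, 6 had no UMI in the members' sums. The 8 T cell markers summed to 0 to 226 CPM (median 22.6). NK cell markers had a median of 0 but reached 892 CPM in a tumour, above the median of 182 CPM in T cells, and B cell markers had a median of 0 and reached 289 CPM. The 7 fibroblast and mesenchymal markers, which include collagens, summed to 9.30 to 3603 CPM (median 777), against a median of 3514 CPM in non-immune cells, so RNA of such cells was present in the members' sums. Its part in the results was not tested except by leaving out cells or comparing levels, as given below. Xist, which is transcribed from the inactive X chromosome of female cells, had a UMI in 44.4% of members, against 65.3% of C1q-high macrophages and 63.1% of T cells at their higher depths, 5.51% of non-immune tumour cells (median 5181 UMIs) and 0.982% of day 0 cells (median 7181 UMIs).

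Monocytes made up more of the tumours' cells early than late. At day 6 they were on average 2.55% to 9.38% of assigned cells in the 5 lines, and on the last day of each line 0.392% to 1.84%. Among myeloid cells (at least 2 Lyz2 UMIs, at least 1 Tyrobp UMI and no Cd3e or Cd3g UMI) their mean share was 27.1% to 44.0% at day 6 and 5.30% to 28.4% on the last day.

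In SCC32 the share of assigned cells was 12.2% and 6.56% in the 2 tumours of day 6, 2.69% and 1.84% at day 10, 3.02% and 1.70% at day 16, and 1.25% and 0.445% at day 20. SCC37 kept high shares for longer, with 11.5% and 5.87% at day 6, 7.20% and 6.95% at day 10, 2.10% and 3.05% at day 16, and 1.62% and 1.51% at day 20. In neither line did a day 20 tumour reach the lowest tumour of day 6. In SCC40, listed as rejected, the shares were 4.64%, 4.10% and 6.76% at day 6, 0.890%, 1.91% and 2.37% at day 10, and 1.72% and 1.96% at day 16. SCC35 started lowest, with 2.15%, 3.34% and 2.15% at day 6 and 2.87%, 1.61% and 4.12% at day 10, and then had 0.559% and 0.169% at day 16 and 0.368%, 0.511% and 0.295% at day 20. The day 6 and day 10 tumours of SCC35 overlapped, while its day 16 and day 20 tumours all lay below them. Of the tumours labelled SCC31, the 1 in the mix library had 12.9% monocytes at day 6 and 1.17% at day 10, while those in the line's own library held 0 of 87 cells and 1 of 76 at day 6 and 0 of 169 at day 10 (0 of 87 allows up to 3.45% and 0 of 169 up to 1.78%).

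**Figure D2:**
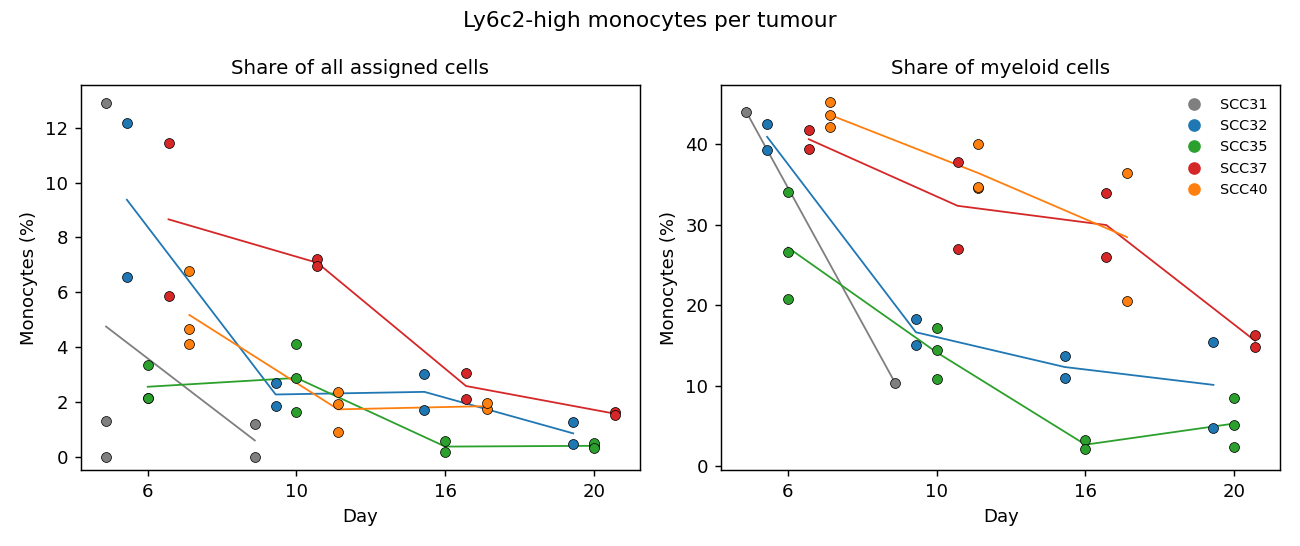
Monocyte share in percent of all assigned cells (left) and of myeloid cells (right) by day, 1 point a tumour, coloured by line and shifted sideways by line, with lines joining the means. The mean share was lower on the last day than on day 6 in 5 of 5 lines.

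Over the lines, the mean share of assigned cells fell by 5.05 percentage points from the first to the last day, lower in 5 of 5 lines (two-sided exact permutation test of days within lines, p = 0.000819, Benjamini-Hochberg adjusted p = 0.00246 over 6 share tests). The share of myeloid cells fell by 25.3 percentage points, again in 5 of 5 lines (exact permutation test, p = 6.94e-05, the smallest these permutations can give, adjusted p = 0.000417). For SCC31 the myeloid change of -33.6 points rested on 1 tumour at day 6 and 1 at day 10. Without the tumours labelled SCC31 the changes were -5.28 and -23.2 percentage points, and leaving out any single tumour, tumour 2 of SCC32 at day 20 among them, gave -5.62 to -4.24 and -26.9 to -23.2 points. A share falls also when other cells become more numerous, and numbers of cells per tumour were not measured.

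Lines differed in the monocyte share at day 10. The statistic of these tests was the sum of squares between lines, and the spans of line means are given beside it as a description. The line means ranged from 0.587% to 7.07% of assigned cells, a span of 6.49 percentage points, highest in SCC37 (exact permutation test over 12 tumours, adjusted p = 0.0111). Of myeloid cells they ranged from 10.3% to 36.4%, a span of 26.0 points, highest in SCC40 and SCC37 (exact permutation test over 11 tumours, adjusted p = 0.0111). At day 6 the corresponding spans were 6.83 points (adjusted p = 0.389) and 16.8 points (adjusted p = 0.0555), both by exact permutation tests, which missed the threshold. The day 10 calls were lost without the mix library, with spans of 7.07 and 23.3 points and adjusted p = 0.0529 and 0.0714 in the exact permutation test, and the call for assigned cells was lost when each cell was thinned to 1500 UMIs, with a span of 3.76 points and adjusted p = 0.0952.

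Expression within the monocytes was compared between days over the 31 tumours, with the line as a term of the model (1 tumour labelled SCC31, 7 each of SCC32 and SCC35, and 8 each of SCC37 and SCC40). There were 11 tumours at day 6, 10 at day 10, 7 at day 16 and 3 at day 20. Those of day 20 were tumour 1 of SCC32 and tumours 1 and 2 of SCC37, so day 20 levels come from these lines only. In all, 4406 genes were tested with edgeR's quasi-likelihood test. At day 10 against day 6, 27 genes were higher (0.613% of genes tested) and 33 lower (0.749%) at an adjusted p under 0.05. At day 16 against day 6, 25 were higher (0.567%) and 26 lower (0.59%). At day 20 against day 6, with 3 tumours, 2 were higher (0.0454%) and 1 lower (0.0227%), and 389 had an unadjusted p under 0.05. These comparisons share the day 6 tumours. The median log2 fold change over all genes was -0.02, -0.04 and -0.10, and sums had a median of 2789 UMIs per cell at day 6, 3341 at day 10, 3923 at day 16 and 2640 at day 20.

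These counts rested on few tumours. Without the tumours of SCC40 the day 10 comparison called 0 genes with edgeR's test (335 at an unadjusted p under 0.05) and without those of SCC32 it called 7, and the day 16 comparison called 9 without either line. Of the 73 single-gene day results followed through the alternatives, 0 reversed direction. Only 6 kept their call in every alternative run, so a call given below without its losses is not thereby stable.

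The interleukin 1 beta gene rose on every later day. Il1b encodes the secreted cytokine that drives fever and recruits further myeloid cells. Its lowest, median and highest tumour stood at 744, 1377 and 2691 CPM at day 6, at 843, 2429 and 4593 CPM at day 10, and at 2470, 4232 and 6088 CPM at day 16, and the 3 tumours of day 20 had 3551, 4949 and 5493 CPM. Every day 20 tumour, all of SCC32 or SCC37, lay above every day 6 tumour. At day 16, 2 tumours lay below the highest day 6 tumour, and day 10 overlapped day 6. The log2 fold change against day 6 was 0.84 ± 0.18 (standard error; edgeR quasi-likelihood test, adjusted p = 0.0112) at day 10, 1.47 ± 0.20 (adjusted p = 3.01e-05) at day 16 and 1.44 ± 0.27 (adjusted p = 0.0179) at day 20, and the line means rose in 4 of 4 lines by day 16. It kept its day 16 call in all 47 alternatives, its day 10 call in 45 and its day 20 call in 42, with adjusted p up to 0.771 at day 20. After thinning members to 1500 UMIs, 4.90% of cells at day 6, 15.2% at day 10, 31.8% at day 16 and 32.8% at day 20 had at least 10 Il1b UMIs, and without thinning 12.2%, 31.1%, 59.9% and 44.2% had, at unequal depths. These shares pool the member cells of all tumours of a day, so they describe cells and not tumours. The mix of lines differed between days, and the day 20 cells included SCC35, which was not in the day 20 gene tests. Il1b was also higher later in C1q-high macrophages, with medians of 1381, 1738, 3231 and 2460 CPM on the 4 days, and it stood at 10.0 CPM in non-immune cells over all tumours. Of T cells, which should lack it, 6.44% had an Il1b UMI, against 77.1% of members.

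Apart from Il1b, the other 16 tested inflammatory cytokine genes did not pass the test on any day. The list held cytokines, chemokines of the CXCL1 to CXCL3 group and feedback genes, 17 in all, and its median log2 fold change was 0.20 at day 10, 0.30 at day 16 and 0.59 at day 20.

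Of 11 tested pattern recognition receptor genes, which sense microbes and damaged cells, 6 rose and 0 fell at day 10 (against 0.613% of all genes higher; median log2 fold change 0.73, against -0.02 over all genes), 3 rose and 0 fell at day 16 (median 0.54), and 0 passed at day 20 (median 0.91). All 11 had positive fold changes at day 10, as did 47.5% of all genes tested.

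Clec4n, which encodes the fungal-mannan receptor dectin-2, was the strongest. Its lowest, median and highest tumour had 56.1, 73.9 and 125 CPM at day 6, 131, 251 and 396 CPM at day 10 and 143, 233 and 437 CPM at day 16. No day 10 or day 16 tumour came down to the highest day 6 tumour. The log2 fold change was 1.56 ± 0.23 at day 10 (edgeR, adjusted p = 0.000208) and 1.73 ± 0.25 at day 16 (adjusted p = 5.37e-05). In C1q-high macrophages the Clec4n median also went from 123 CPM at day 6 to 179, 338 and 413 CPM.

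Clec4e, which encodes the related receptor Mincle and is a marker of the cells, had 112, 192 and 275 CPM at day 6 (lowest, median and highest tumour), 220, 325 and 599 CPM at day 10 and 191, 419 and 550 CPM at day 16. Day 10 overlapped day 6 in part over all lines, yet within each of the 4 lines every day 10 tumour exceeded every day 6 tumour. The log2 fold change was 0.87 ± 0.18 at day 10 (edgeR, adjusted p = 0.00783) and 0.89 ± 0.20 at day 16 (adjusted p = 0.0138). C1q-high macrophages kept medians of 89.1 to 106 CPM of Clec4e on the 4 days.

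Toll-like receptor 2 (Tlr2), which senses bacterial lipoproteins, had 44.8, 178 and 235 CPM at day 6 and 153, 369 and 424 CPM at day 10, again as lowest, median and highest tumour. The 2 days overlapped. The log2 fold change was 1.12 ± 0.19 at day 10 (edgeR, adjusted p = 0.00157) and 0.84 ± 0.22 at day 16 (adjusted p = 0.0452), a call lost in 19 of 47 alternatives. Trem1, an amplifier of Toll-like receptor signals, rose by 1.45 ± 0.32 at day 10 (adjusted p = 0.0134), from a median of 24.2 to 62.8 CPM. Clec5a, a lectin that signals through DAP12, rose by 1.38 ± 0.34 (adjusted p = 0.0306) from 27.6 to 71.6 CPM, and Cd14, the lipopolysaccharide co-receptor, by 0.73 ± 0.18 (adjusted p = 0.0291) from 510 to 828 CPM, and edgeR called neither at day 16.

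**Figure D3:**
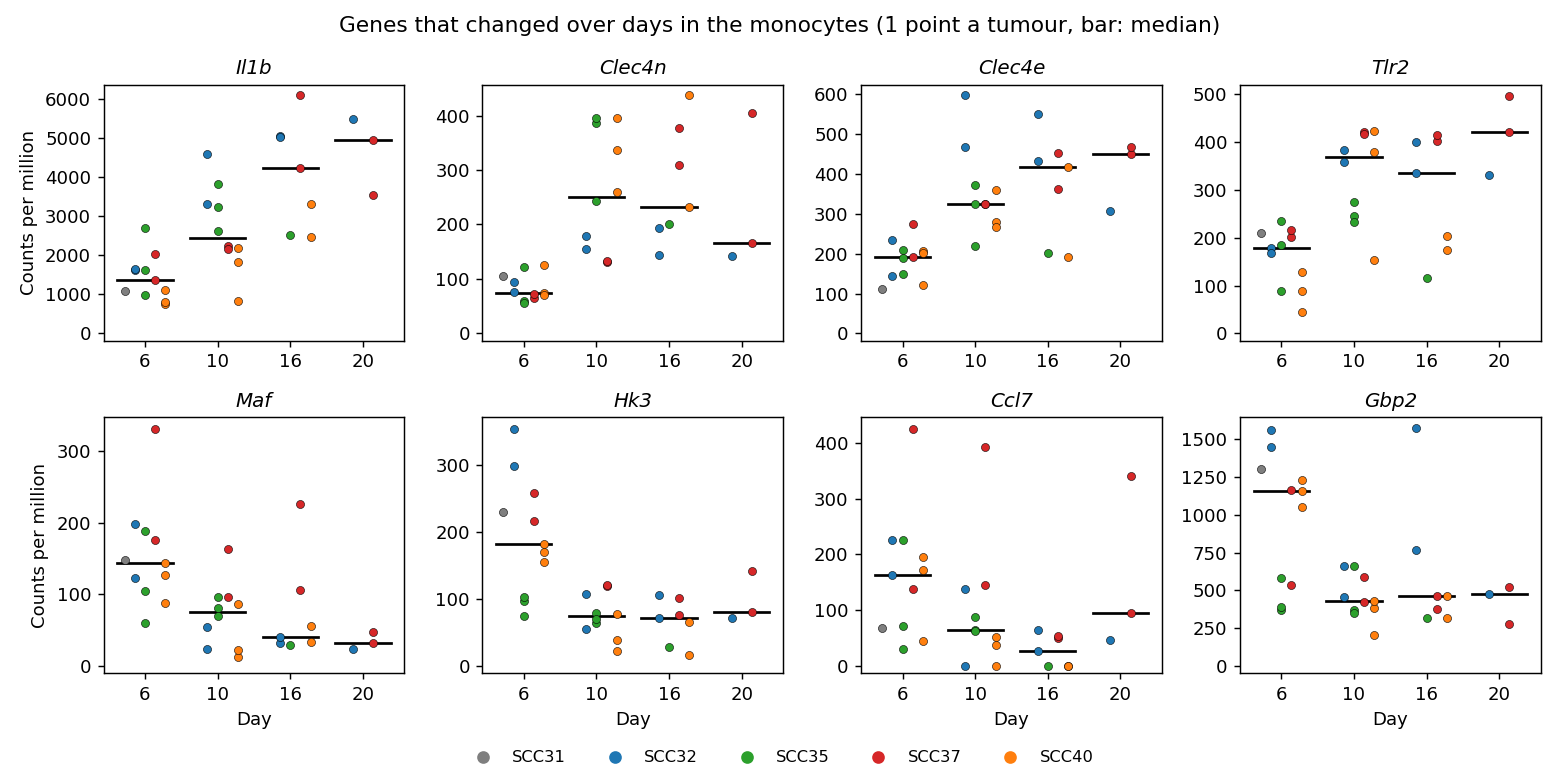
Levels of 8 genes in the members by day, in CPM on linear axes, 1 point a tumour coloured by line, with a bar at each day's median. Day 6 medians were the lowest of the 4 days for Il1b and Clec4n and the highest for Maf and Hk3.

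Fpr2, a formyl peptide receptor for bacterial and mitochondrial peptides, rose by 1.55 ± 0.33 at day 10 (edgeR, adjusted p = 0.0112), with 13.4, 24.0 and 80.8 CPM at day 6 and 24.1, 93.6 and 180 CPM at day 10 (lowest, median and highest tumour). The days overlapped, and SCC37 went the other way, with a mean lower by 40.5 CPM at day 10. Pilra, an inhibitory receptor of myeloid cells, rose by 1.35 ± 0.35 at day 10 (adjusted p = 0.0362) and 1.86 ± 0.36 at day 16 (adjusted p = 0.00382), from a median of 28.2 CPM at day 6 to 88.4 and 86.5 CPM. Its activating neighbour Pilrb2, whose sequence resembles that of Pilrb1 so that reads may be shared, rose by 2.55 ± 0.53 at day 16 (adjusted p = 0.00632).

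Spint1, which encodes a Kunitz-type inhibitor of serine proteases, rose late. Its lowest, median and highest tumour had 0, 11.7 and 37.6 CPM at day 6 and 8.32, 83.7 and 277 CPM at day 16, and the day 20 tumours had 113, 166 and 189 CPM. Day 16 overlapped day 6, while the day 20 tumours lay above all of day 6. Spint1 rose by 2.46 ± 0.48 at day 16 (edgeR, adjusted p = 0.00382) and 3.35 ± 0.65 at day 20 (adjusted p = 0.0179), on 160 UMIs in all. Mmp12, macrophage elastase, rose by 2.81 ± 0.72 at day 16 (adjusted p = 0.0406), but its day 16 tumours ranged from 0 to 446 CPM and the call was lost in 17 of 47 alternatives. Itgax, the integrin CD11c, rose by 1.46 ± 0.34 at day 16 (adjusted p = 0.0196), from a median of 47.0 CPM at day 6 to 167 CPM. C1q-high macrophages had medians of 67.1 and 251 CPM of Itgax on the same days, and their part in the members' rise was not tested.

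Maf fell at days 10 and 16, and also at day 20 on very few molecules. It encodes c-MAF, a transcription factor of tissue macrophages. Its lowest, median and highest tumour had 59.3, 143 and 331 CPM at day 6, 12.8, 75.6 and 163 CPM at day 10 and 28.8, 39.9 and 226 CPM at day 16, and the day 20 tumours had 23.7, 32.3 and 47.3 CPM. Days 10 and 16 overlapped day 6, and all day 20 tumours lay below all of day 6, but 1 UMI was worth 16.2 to 23.7 CPM in the day 20 sums, so these levels rest on 1 or 2 UMIs a tumour. The log2 fold change was -1.11 ± 0.24 at day 10 (edgeR, adjusted p = 0.0129), -1.38 ± 0.29 at day 16 (adjusted p = 0.0071) and -2.81 ± 0.58 at day 20 (adjusted p = 0.032), the last lost in 11 of 47 alternatives with adjusted p up to 0.788. In C1q-high macrophages the Maf medians went the other way, with 104, 127, 154 and 195 CPM on the 4 days.

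Of the 13 transcription factors tested, Maf and Batf3 fell and Nr4a1 rose at day 10. Batf3, best known from dendritic cells, fell by 1.57 ± 0.39 (edgeR, adjusted p = 0.0314) from a median of 53.3 to 13.4 CPM. Nr4a1, which is needed for the conversion of Ly6C-high to patrolling monocytes and is also induced rapidly by stimulation, rose by 0.86 ± 0.20 (adjusted p = 0.0184), from a median of 246 to 624 CPM. Nr4a1 was also higher at day 10 in non-immune cells, with medians of 449 and 720 CPM. None of the 11 immediate early genes that respond to tissue dissociation passed edgeR's test on any day (medians 0.20, 0.09 and 0.20). Of these 11, 10, 9 and 7 had positive log2 fold changes at days 10, 16 and 20, against 47.5%, 45.3% and 42.6% of all genes.

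Itgb7, an integrin chain gene of cell adhesion, had 56.0, 91.3 and 169 CPM at day 6 (lowest, median and highest tumour) and 31.9, 41.6 and 101 CPM at day 16. The days overlapped. It fell by 1.14 ± 0.30 at day 16 (edgeR, adjusted p = 0.0482), a call lost in 27 of 47 alternatives, and the line means were lower in 4 of 4 lines. Among the adhesion and migration genes tested, 0 rose on any day.

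Of 12 tested chemokines, 0 rose and 2 fell at day 10 (Ccl24 and Ccl6), against 0.749% of all genes lower, with a median log2 fold change of -0.71 against -0.02 over all genes. At day 16 Ccl24 and Ccl7 fell, against 0.59% of all genes, with a median of -0.94 against -0.04, and 0 were called at day 20 (median -0.95 against -0.10).

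Ccl7, a ligand of CCR2, had 29.6, 164 and 424 CPM at day 6 (lowest, median and highest tumour), 0, 63.5 and 392 CPM at day 10 and 0, 26.6 and 63.7 CPM at day 16. Within each of the 4 lines every day 16 tumour lay below every day 6 tumour. Ccl7 fell by 2.85 ± 0.52 at day 16 (edgeR, adjusted p = 0.00219), a call kept in all 47 alternatives, while C1q-high macrophages kept medians of 382 to 431 CPM on the 4 days. Ccl24, eotaxin 2, had 24.0, 74.1 and 210 CPM at day 6 and 0, 3.02 and 68.2 CPM at day 10, and it was at 0 in the 3 tumours of day 20. Its fitted log2 fold changes of -2.22 ± 0.54 at day 10 (adjusted p = 0.0281) and -2.68 ± 0.64 at day 16 (adjusted p = 0.0243) depend on how counts of 0 are treated. Ccl24 was also lower later in C1q-high macrophages, with medians of 106, 2.50 and 1.41 CPM at days 6, 10 and 16.

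Ccl6, a ligand of CCR1, fell by 1.04 ± 0.23 at day 10 (edgeR, adjusted p = 0.0161) from a median of 403 to 161 CPM. Among 5 chemokine receptors tested, Ccr1 itself fell by 1.14 ± 0.24 at day 16 (adjusted p = 0.0071), from a median of 216 to 75.5 CPM, and within each of the 4 lines its day 16 tumours lay below those of day 6. Cxcr4, the bone marrow retention receptor, rose by 0.97 ± 0.22 at day 10 (adjusted p = 0.0184), from a median of 60.9 to 124 CPM. Ccr2 was not called, with log2 fold changes of 0.36 ± 0.19, -0.05 ± 0.22 and 0.70 ± 0.30 on days 10, 16 and 20.

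Interferon-induced genes were lower at day 10 and day 16 in most cases, though few passed the test. Of 24 tested interferon-stimulated genes, 22 had negative log2 fold changes at day 10 (median -0.30), 24 at day 16 (median -0.44) and 19 at day 20 (median -0.44), where 47.5%, 45.3% and 42.6% of all genes had positive ones. Ifi47 fell at day 10 and Ifi204 and Ifi47 at day 16, and 0 rose. The Ifi204 call was lost in 23 of 47 alternatives, and the Ifi47 calls in 17 at day 10 and 4 at day 16. Of 24 interferon-gamma and antigen presentation genes, Gbp2 and Tap1 fell at day 10 (median -0.45), 0 were called at day 16 (median -0.33) and 0 at day 20 (median -0.11).

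Gbp2, a guanylate-binding protein that attacks the membranes of intracellular microbes, had 370, 1156 and 1564 CPM at day 6 (lowest, median and highest tumour) and 207, 429 and 664 CPM at day 10. The days overlapped. Its log2 fold change was -0.98 ± 0.21 at day 10 (edgeR, adjusted p = 0.0112) and -0.82 ± 0.24 at day 16 (adjusted p = 0.079). Gbp2 was also lower at day 10 in C1q-high macrophages, at 628 and 250 CPM, and in non-immune cells, at 556 and 182 CPM. Gbp4 of the same family fell by 1.40 ± 0.27 at day 10 (adjusted p = 0.00432), from a median of 152 to 58.2 CPM, and Tap1, a subunit of the peptide transporter for class I antigens, fell by 0.68 ± 0.16 (adjusted p = 0.0272), from 343 to 209 CPM. Cd274, which encodes the checkpoint ligand PD-L1 and is induced by interferon gamma, fell by 1.23 ± 0.24 at day 10 (adjusted p = 0.00441) with 74.1, 282 and 373 CPM at day 6 and 51.1, 87.6 and 193 CPM at day 10. It was the member of its list of 8 costimulation and checkpoint genes called at day 10, and Tgfb1 rose at day 16 by 0.67 ± 0.17 (adjusted p = 0.0414). Class II genes were not called: Cd74, the class II chaperone, had log2 fold changes of 0.15 ± 0.20, 0.69 ± 0.23 and 1.21 ± 0.31 on days 10, 16 and 20 (adjusted p = 0.914, 0.154 and 0.088).

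**Figure D4:**
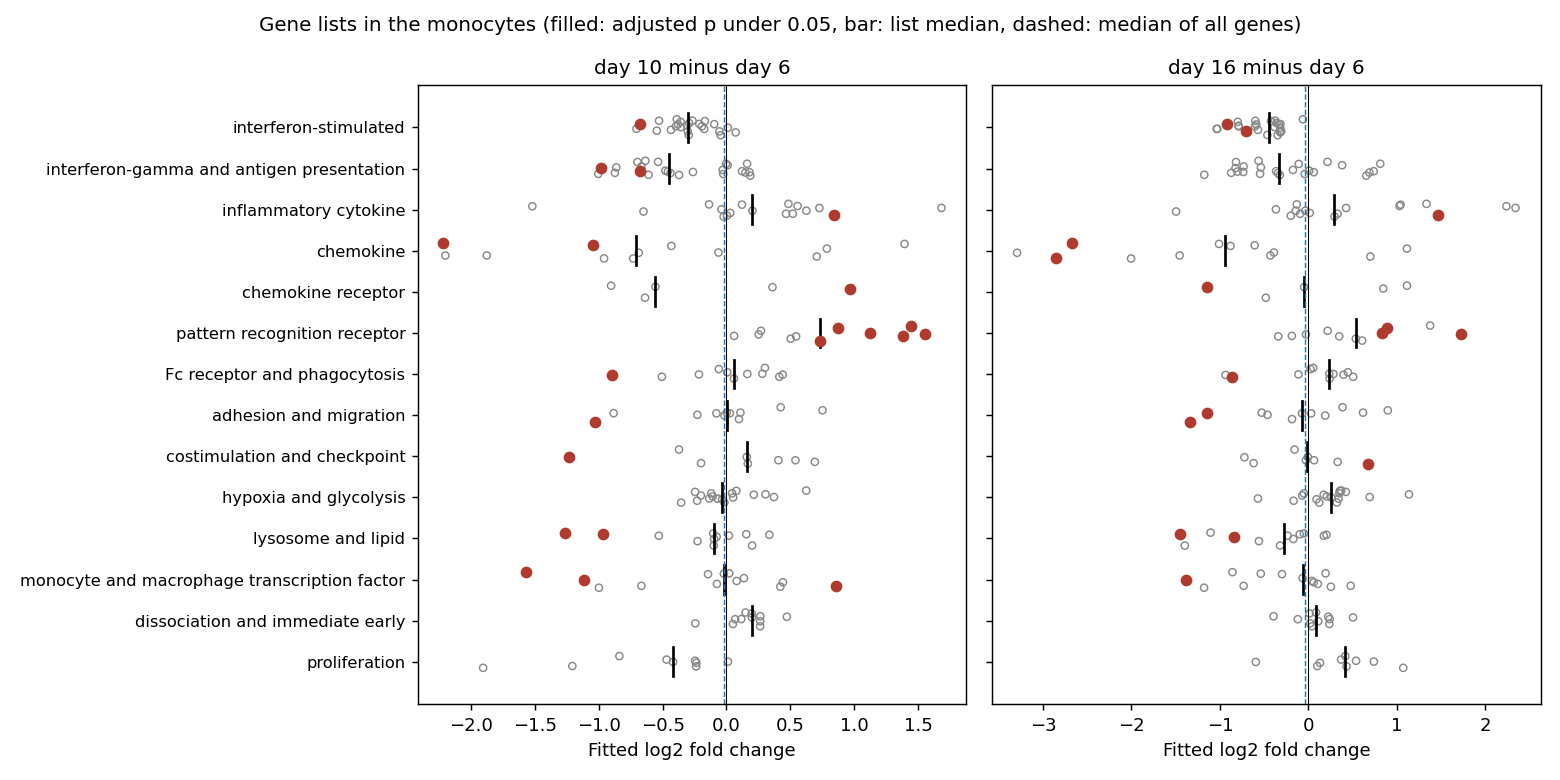
Fitted log2 fold change of each tested gene of the gene lists, at day 10 (left) and day 16 (right) against day 6, 1 point a gene, filled at an adjusted p under 0.05, with a bar at the list's median and a dashed line at the median of all genes. Pattern recognition receptors lay above 0 for 11 of 11 genes at day 10, and interferon-stimulated genes below 0 for 24 of 24 at day 16.

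The promoters of genes that fell with the interferon group were read for a core of the interferon-stimulated response element, GAAA followed by any 2 bases and GAAA again, on both strands. RefSeq promoters on build GRCm38.p6 were used, limited to the 250 bases before each annotated start, and they are shown for 2 guanylate-binding protein genes that fell together at day 10. Gbp2 (chr3:142620413-142620662, plus strand) held it 59 bases before its start. Gbp7 (chr3:142530086-142530335, plus strand), which fell by 0.81 ± 0.20 at day 10 (edgeR, adjusted p = 0.0337) and was chosen after its values were seen, held it 53 bases before its start. H2-T23 and Phf11b, also called lower at day 10, held it too, while Tap1, Ifi47, Cd274 and Serpina3g held 0 matches. The motif is in capitals, read on the opposite strand:
Gbp2: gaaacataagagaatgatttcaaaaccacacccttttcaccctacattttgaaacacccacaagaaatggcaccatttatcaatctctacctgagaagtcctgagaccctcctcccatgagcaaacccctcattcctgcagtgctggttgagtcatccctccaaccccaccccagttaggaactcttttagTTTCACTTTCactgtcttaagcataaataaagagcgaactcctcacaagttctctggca
Gbp7: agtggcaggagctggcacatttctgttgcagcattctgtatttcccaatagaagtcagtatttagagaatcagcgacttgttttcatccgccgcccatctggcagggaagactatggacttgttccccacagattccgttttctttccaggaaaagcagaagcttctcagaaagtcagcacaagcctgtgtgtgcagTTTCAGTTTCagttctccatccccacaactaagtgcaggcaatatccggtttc

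The motif did not separate falls from rises. It was present in the promoters of 5 of the 25 genes called lower at day 10 that had a promoter entry (20%) and in 5 of the 24 called higher (20.8%), among them Pilra and Pilrb2, against 4.6% of 3500 tested genes and 2.98% of all 32851 promoters of this length. At day 16 the shares were 1 of 16 lower (6.25%) and 3 of 23 higher. A match is a description of the letters and not a binding site.

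Hk3 and Plin2 fell at days 10 and 16. Hk3, the hexokinase of myeloid cells, had 74.1, 182 and 354 CPM at day 6 (lowest, median and highest tumour), 21.8, 74.2 and 121 CPM at day 10 and 16.6, 71.7 and 106 CPM at day 16. Day 10 and day 16 overlapped day 6, while within each of the 4 lines every day 16 tumour was below every day 6 tumour. Hk3 fell by 1.24 ± 0.21 at day 10 (edgeR, adjusted p = 0.000992) and by 1.73 ± 0.25 at day 16 (adjusted p = 4.03e-05), the latter in all 47 alternatives, and its medians in C1q-high macrophages were 178, 67.7 and 66.6 CPM on the same days.

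Plin2, which coats lipid droplets, had 133, 456 and 538 CPM at day 6, 152, 197 and 312 CPM at day 10 and 106, 158 and 251 CPM at day 16, as lowest, median and highest tumour. A single low tumour at day 6 accounted for the overlap with the later days at the low end. Plin2 fell by 0.97 ± 0.19 at day 10 (edgeR, adjusted p = 0.00512) and by 1.45 ± 0.23 at day 16 (adjusted p = 0.00015). Lpl, lipoprotein lipase, fell by 1.26 ± 0.33 at day 10 (adjusted p = 0.0449), a call lost in 24 of 47 alternatives. Ctsd, a lysosomal protease gene, fell by 0.84 ± 0.20 at day 16 (adjusted p = 0.0215), from a median of 355 to 202 CPM. Of the 12 lysosome and lipid genes tested these were the falls and 0 rose, and 0 of 16 hypoxia and glycolysis genes and 0 of 9 proliferation genes were called by edgeR on any day.

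Of 11 Fc receptor and phagocytosis genes tested, 1 fell at day 10 and 1 at day 16, while 7, 8 and 8 of 11 had positive log2 fold changes at days 10, 16 and 20 (medians 0.06, 0.24 and 0.35, against -0.02, -0.04 and -0.10 over all genes). Fcgr4, a receptor for immunoglobulin G, fell by 0.90 ± 0.23 at day 10 (edgeR, adjusted p = 0.0362), from a median of 176 to 90.4 CPM, and Fcgr1, the high-affinity receptor, fell by 0.87 ± 0.22 at day 16 (adjusted p = 0.0394), from 365 to 253 CPM. These calls were lost in 17 and 20 of 47 alternatives. Ms4a7, a macrophage gene, rose by 1.75 ± 0.43 at day 10 (adjusted p = 0.0291), from a median of 8.01 to 119 CPM, but had medians of 13.3 and 23.7 CPM at days 16 and 20 and was not called there. C1q-high macrophages had medians of 175 and 459 CPM of Ms4a7 at days 6 and 10, and their part in it was not tested. The 18 macrophage markers summed to medians of 5660, 7877, 5235 and 8507 CPM in the members on the 4 days.

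Many genes differed between lines. In the same model 534 genes (12.1% of 4406 tested) differed between the 5 lines. Genes of interferon-gamma response and antigen presentation were frequent among them, 14 of 24 tested, as were inflammatory cytokine genes, 8 of 17, interferon-stimulated genes, 9 of 24, and transcription factors, 6 of 13. The count of genes called between lines was 973 without the mix library and 319 without Scrublet-called cells, and most lines came from a library of their own. A fit with a single mean for each line and day called 51 genes at day 10 and 28 at day 16. Its line test compared the day 6 means only and called 12 genes, so it is not the same comparison.

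Ifitm1 was higher in SCC35 monocytes. Ifitm1, which encodes an interferon-induced membrane protein, had 299, 489 and 1346 CPM in SCC35 (lowest, median and highest of 7 tumours), 7.97, 68.5 and 124 CPM in SCC32, 0, 32.8 and 113 CPM in SCC37 and 8.63, 32.8 and 195 CPM in SCC40, with 150 CPM in the 1 tumour labelled SCC31. No tumour of another line reached the lowest SCC35 tumour. It differed between lines (edgeR, F = 29.4, adjusted p = 1.13e-07) in all 42 alternatives. Within the mix library, where the library is shared, the day 6 tumours had 1346 CPM in SCC35, 150 CPM in the tumour labelled SCC31 and 40.1 CPM in SCC40. At day 10 the mix library tumours had 299 CPM in SCC35 and 8.63 CPM in SCC40. Non-immune cells held 0 to 82.7 CPM of Ifitm1 over 40 tumours, with a median of 6.20 CPM in SCC35.

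Cxcl9, Bst2 and B2m had lower medians in SCC35 than in SCC32, SCC37 and SCC40. Cxcl9, a chemokine for activated T cells, had 207, 370 and 678 CPM in SCC35 (lowest, median and highest tumour), 906, 1321 and 2463 CPM in SCC32, 309, 597 and 1100 CPM in SCC37 and 354, 974 and 1734 CPM in SCC40, and 1552 CPM in the tumour labelled SCC31. Every SCC32 tumour exceeded every SCC35 tumour, and the other lines overlapped (edgeR, adjusted p = 0.000367 between lines, kept in all 42 alternatives). In the mix library at day 6 Cxcl9 stood at 678 CPM in SCC35, 1246 CPM in SCC40 and 1552 CPM in the tumour labelled SCC31, but at day 10 at 370 CPM in SCC35 and 354 CPM in SCC40. Non-immune cells had Cxcl9 medians of 34.5 CPM in SCC35, 43.2 in SCC40, 108 in SCC37 and 204 in SCC32. Bst2, which encodes tetherin and belongs to the interferon-stimulated list, had medians of 550 CPM in SCC35, 1026 in SCC37, 1160 in SCC40 and 1347 in SCC32 (adjusted p = 0.000125), and the day 6 mix library tumours had 668, 1006 and 896 CPM in SCC35, SCC40 and the one labelled SCC31. Non-immune cells had Bst2 medians of 854 CPM in SCC35 and 1622 to 2122 CPM in SCC37, SCC40 and SCC32, and their part in the difference was not tested. B2m, the class I light chain, had medians of 3514 CPM in SCC35, 3992 in SCC40, 4897 in SCC37 and 5591 in SCC32 (adjusted p = 0.00228), but in the mix library at day 6 it stood at 3670 CPM in SCC35, 3600 CPM in SCC40 and 3859 CPM in the tumour labelled SCC31, so SCC35 was not lowest there.

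Il1rn and Tnfaip3 had higher medians in SCC32 and SCC37 than in SCC35 and SCC40. Il1rn, which encodes the interleukin 1 receptor antagonist, had medians of 773 CPM in SCC32 and 802 in SCC37 against 289 in SCC35 and 371 in SCC40 (edgeR, adjusted p = 0.000453), and 749 CPM in the tumour labelled SCC31. Tnfaip3, which encodes the NF-kappaB inhibitor A20, had medians of 357 and 363 CPM against 136 and 182 CPM in the same order (adjusted p = 4.23e-05). All SCC32 and SCC37 tumours exceeded all SCC35 and SCC40 tumours for Tnfaip3, whose lowest in the first pair was 258 CPM and highest in the second 242 CPM. Non-immune cells had Tnfaip3 medians of 299 CPM in SCC32, 207 in SCC37, 199 in SCC40 and 75.7 in SCC35, and their part in the difference was not tested. Il6 was detected on 160 UMIs, with medians of 71.9 CPM in SCC32, 46.9 in SCC37, 3.36 in SCC40 and 0 in SCC35 (adjusted p = 0.00052), and non-immune cells had a median of 26.8 CPM of Il6. Il1b itself differed between lines (edgeR, adjusted p = 0.0175). Its medians over days were 4593 CPM in SCC32, 2889 in SCC37, 2630 in SCC35 and 1470 in SCC40, with 1081 CPM in the day 6 tumour labelled SCC31. In the gene tests SCC35 and SCC40 had no day 20 tumour, and of day 16 SCC35 had only tumour 1.

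**Figure D5:**
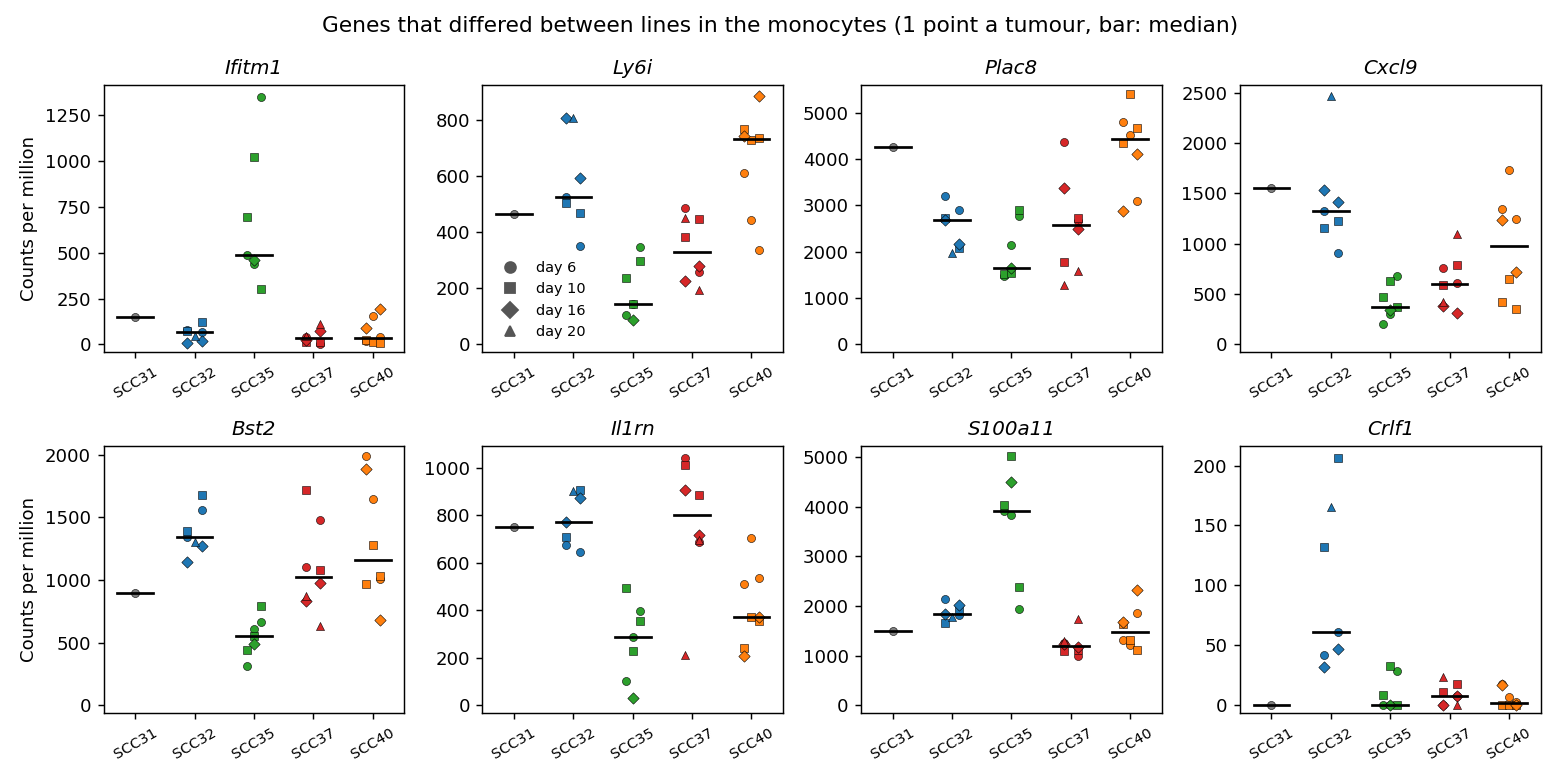
Levels of 8 genes in the members by line, in CPM on linear axes, 1 point a tumour with its day as the symbol and a bar at the line's median. Ifitm1 was at 299 CPM or more in every SCC35 tumour and at 195 CPM or less in the others.

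The monocyte markers given with the cells also varied by line. Plac8, which was highest in SCC40, had 2878, 4428 and 5396 CPM there (lowest, median and highest tumour), 1965, 2676 and 3201 CPM in SCC32, 1278, 2585 and 4377 CPM in SCC37 and 1481, 1642 and 2902 CPM in SCC35 (edgeR, adjusted p = 0.000181). The highest SCC35 tumour exceeded the lowest SCC40 tumour, and the other values of the 2 lines did not overlap. Ly6i had medians of 731 CPM in SCC40, 524 in SCC32, 330 in SCC37 and 146 in SCC35 (adjusted p = 0.000121). Within the mix library Plac8 stood at 2776 CPM in SCC35 and 3100 CPM in SCC40 at day 6 and at 2902 and 4676 CPM at day 10. Ly6i stood at 348 and 336 CPM at day 6 and at 295 and 733 CPM at day 10, so SCC40 was higher in each pair except Ly6i at day 6. Ccr2 was not called between lines (adjusted p = 0.319), with medians of 276 to 447 CPM in SCC32, SCC35, SCC37 and SCC40, nor was Clec4e (adjusted p = 0.157).

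Some line differences followed the level of the gene in non-immune cells or in the library. S100a11, a calcium-binding protein gene, had a median of 3925 CPM in SCC35 members against 1201 to 1848 CPM in the other lines (edgeR, adjusted p = 3.54e-07), and non-immune cells of SCC35 had a median of 4117 CPM. The 2 SCC35 tumours of the mix library had 1948 and 2391 CPM. Col4a1, a basement membrane collagen gene, had medians of 189 CPM in SCC32 members and 435 CPM in SCC32 non-immune cells, and the fibroblast markers Col1a1, Col3a1 and Dcn were also called between lines. The summed fibroblast markers had medians of 1373 CPM in SCC32, 1214 in SCC35, 710 in SCC37 and 170 in SCC40 members. Ribosomal protein genes made up a median of 16.6% of the sums in SCC40 against 10.9% to 13.8% in the other lines, and Rps9, Rps4x, Rpl9-ps6 and Rpl10-ps3, the last 2 being near-identical copies of ribosomal genes, were among the 15 line differences of highest F.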

How the data were processed

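Droplet 5' gene expression and hashtag libraries were analysed from the raw UMI counts deposited by the authors, made with Cell Ranger 6.0.0 on mm10, per the submitters' processing notes. Hashtag identities (line, outcome, day, mouse) came from the sheet the authors deposited, whose entries are labels of another kind than counts. Cells needed at least 300 genes, at most 15% mitochondrial counts, and a leading hashtag of at least 10 counts and 2 times the next. Depth per tumour is given with the results, and intervals and limits of 0 cover counting error only. Members and gene lists were chosen with earlier results of these data known. Scrublet doublets were kept and left out as an alternative.

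Raw counts of members were summed per tumour (at least 10 cells), filtered with filterByExpr and TMM-normalised, and tested with edgeR 4.0.16 (quasi-likelihood test, line and day as terms, limma 3.58.1, R 4.3.3) at a Benjamini-Hochberg adjusted p under 0.05. Shares used tumours with at least 20 cells in the denominator and exact permutation tests (numpy 2.4.6). These were two-sided for the change over days and used the sum of squares between lines for line differences. DESeq2 1.42.0 was an alternative. The fits were tested on simulated data. Genes named are the 5 given markers, list members that were called or highly expressed, up to 10 rises and 10 falls per day comparison with at least 100 counts, and the 15 genes of highest F between lines. Tumours with the same replicate number did not deviate together (median correlation of deviations 0.000103, from -0.356 to 0.199 over 138 pairs), so numbers were not used as pairs. The result of 1 gene that this rule names is not reported here.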

Additional observations from a re-analysis of the deposited data

Results flagged for a closer look

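Fpr2 moved in opposite directions between lines at day 10. The mean level at day 10 minus day 6 was 122 CPM in SCC32, 78.9 CPM in SCC35 and 65.6 CPM in SCC40, where every day 10 tumour exceeded every day 6 tumour, and -40.5 CPM in SCC37, where every day 10 tumour lay below every day 6 tumour. Pilra did the same, with 73.0 CPM in SCC32 and 112 CPM in SCC35 against -42.9 CPM in SCC37. The differences between lines were not tested.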

How the results depend on the processing

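Over the alternatives run, 73 single-gene day results gave 3354 values, of which 678 lost their call and 0 reversed. For 82 line results 418 of 3435 values lost the call. Counts of called genes were 60 at day 10, 51 at day 16, 3 at day 20 and 534 between lines. They were 100, 95 and 51 on the 3 days without a filter on low counts. DESeq2 called 84 at day 16 and 27 at day 20, and DESeq2-style size factors gave 14 at day 20. With at least 20 cells a tumour they were 33 at day 16, 9 at day 20 and 348 between lines, and with at least 5 cells 20 at day 20. A single mean per line and day gave 51, 28 and 0 on the 3 days. It gave 12 between lines at day 6 only, another comparison than that of the 534. The replicate block gave 55, 41, 17 and 466, and the numbers do not pair the tumours. At least 3 Ly6c2 UMIs gave 24 and 14 at days 16 and 20, and leaving out Scrublet-called cells 10 at day 20 and 319 between lines. Leaving out cells with RNA of another type gave 15 at day 20. Without the mix library, day 20 had 20 and lines 973. Without SCC31 day 20 had 11, without SCC32 days 10 and 16 had 7 and 9, without SCC35 days 16 and 20 had 105 and 29, without SCC37 the days had 34, 27 and 0, and without SCC40 0, 9 and 5. Leaving out 1 tumour at a time gave 27 to 80, 19 to 72, 0 to 18 and 439 to 672. At day 10 the count was lowest without SCC32 day 10 tumour 2 (27), and it was 32 without either SCC32 day 6 tumour, 35 without SCC37 day 6 tumour 1, 36 without SCC40 day 10 tumour 2, 37 without SCC35 day 6 tumour 2 or SCC40 day 6 tumour 3, and 39 without SCC40 day 6 tumour 1 or SCC40 day 10 tumour 3. At day 16 it was 19 without SCC40 day 16 tumour 2, 28 without SCC32 day 6 tumour 2 and 30 without SCC32 day 16 tumour 1. At day 20 it was 0 and 1 without SCC37 day 20 tumour 2 and tumour 1, 5 without SCC32 day 16 tumour 1 or SCC40 day 6 tumour 2, 7 without SCC40 day 10 tumour 1, 8 without SCC32 day 6 tumour 1 or SCC40 day 16 tumour 1, 9 without SCC37 day 16 tumour 1, 10 without SCC35 day 10 tumour 3, 11 without SCC31 day 6 tumour 3, 13 without SCC32 day 10 tumour 2, 15 without SCC35 day 16 tumour 1 and 18 without SCC35 day 6 tumour 3. For the shares of myeloid cells, the day 6 line span was 17.7 points (adjusted p = 0.0170) with the strict cell filter, 19.0 (0.0206) with at least 3 Ly6c2 UMIs and 16.2 (0.0396) without Scrublet-called cells, all exact permutation tests past the threshold. The day 10 span of myeloid shares with at least 1 Ly6c2 UMI was 22.0 (adjusted p = 0.0783), without the mix library 23.3 (0.0714), and for assigned cells 7.07 (0.0529) without the mix library and 3.76 (0.0952) after thinning, exact permutation tests that missed it. Leaving out 1 tumour at a time gave assigned-cell spans of 6.11 to 9.64 at day 6 and 5.90 to 7.07 at day 10, myeloid spans of 13.6 to 20.3 and 22.3 to 27.4, and changes of -5.62 to -4.24 and -26.9 to -23.2. Without the tumours labelled SCC31, chosen after seeing the data, the spans were 6.83 and 5.35 for assigned cells and 16.5 and 22.3 for myeloid cells. The cause of these shifts was not tested. In a tumour's sum 1 UMI was worth 1.84 to 28.8 CPM, and 16.2 to 23.7 CPM at day 20, so low levels rest on single molecules.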
